A study of Gossypium barbadense and Gossypium hirsutum with 4 samples.

Results

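Chromosomes A11 and D11 are homoeologues: they descend from the same ancestral chromosome and reached allotetraploid cotton through its A and D ancestors. CENH3 was mapped on them in Gossypium barbadense and in Gossypium hirsutum, the cotton species that both carry an A and a D subgenome, in a series that set out to place the centromeres of both. All enriched regions, called islands, that the deposited lists place on A11 or D11 were taken, and these were 12959 of the 156610 islands of both lists. The G. barbadense list (the name Hai7124 stands in its label) had 3458 islands on A11 and 2141 on D11, 8.28% of its 67639 islands. The G. hirsutum list (TM_1) had 5300 on A11 and 2060 on D11, 8.27% of its 88971.

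Each species had 1 ChIP library, made with an antibody against CENH3, and 1 input library made without antibody. All 4 libraries came from leaf tissue collected 4 weeks after planting, from nuclei digested with micrococcal nuclease. Beyond the species and the names Hai7124 and TM_1 in the list labels, no genotype, treatment or number of plants was given in the labels. As each species had a single ChIP library, nothing measures replicate error and no difference has a test; all intervals are 95% Clopper-Pearson intervals that cover counting error only.

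CENH3 is the histone H3 variant of plant centromeres, where it takes the place of canonical H3 in a fraction of the nucleosomes and carries the kinetochore, to which spindle microtubules attach. Its position is inherited mainly through chromatin and not through a fixed DNA sequence, so that the centromere can differ in sequence and place between related chromosomes. Plant centromeres are often embedded in long arrays of repeats and retrotransposons, where short reads are hard to place.

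Reads in islands of the pair came to 208255 ChIP and 119806 input reads on A11 and 99842 and 52276 on D11 in G. barbadense, and to 364957 and 205974 on A11 and 140070 and 86205 on D11 in G. hirsutum. These are sums over what was called and not library depths. The strength of an island is given as its scaled ratio, ChIP reads over input reads (at least 3) times the constant that scales for library size, 1.64 in G. barbadense and 1.20 in G. hirsutum. The ratio of a region pools the reads of its islands in the same way, so it describes called islands only and overstates the enrichment of the interval around them. The lists rest on different assemblies, whose names are not given in the sources used here. Positions are therefore in Mb of each list's own assembly, and species are compared by relative position, in percent of the end of the last island, which is a lower bound of the chromosome length. That end lay at 116 Mb on A11 and 72.1 Mb on D11 in G. barbadense, and at 121 Mb on A11 and 71.3 Mb on D11 in G. hirsutum.

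The question for each chromosome was where its centromere lies. In G. barbadense both chromosomes had 1 sharp CENH3 domain just beyond the middle of the chromosome. The domain of A11 ran over 1.2 Mb between 66.9 and 68.1 Mb, centred at 58.1% of the length. The domain of D11 ran over 1.5 Mb between 44.3 and 45.8 Mb, centred at 62.5%. In G. hirsutum A11 had a domain of 1.3 Mb between 71.7 and 73.0 Mb, centred at 59.7%, while D11 had no single site that stood out from all its islands. A domain was the run of 100 kb bins around the highest one in which the island ratios (log2, per base, smoothed over 5 bins) exceeded the chromosome's median by at least 25% of the distance to the maximum, and it counted as distinct if that maximum reached 2 times any value more than 2 Mb away.

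By that rule all 26 G. barbadense chromosomes (100%) had a distinct domain, against 16 of 26 (61.5%) in G. hirsutum. The maximum stood 6.12 times above the next site on A11 and 15.7 times on D11 in G. barbadense. In G. hirsutum it stood 2.30 times above on A11 and 1.09 times on D11. D11 of G. hirsutum had the lowest maximum of the 26 chromosomes in its list, whereas D11 of G. barbadense had the lowest but 1 and A11 of G. hirsutum the highest but 1.

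**Figure D1:**
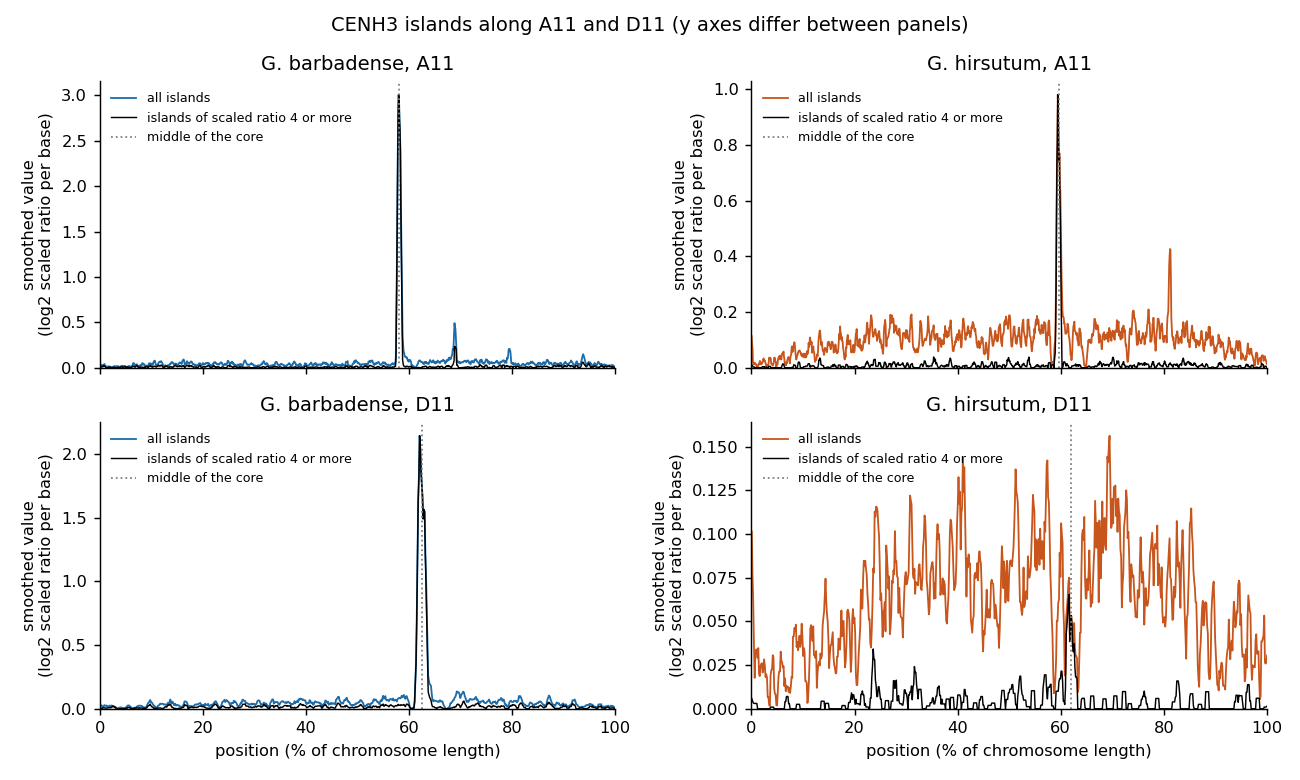
Smoothed island value (mean log2 scaled ratio per base, y axis) along A11 and D11 (rows; x axis, percent of chromosome length) in G. barbadense (left) and G. hirsutum (right), for all islands (coloured) and for islands of scaled ratio 4 or more (black). A single spike stands at 58.1% and 62.5% in G. barbadense A11 and D11 and at 59.7% in G. hirsutum A11; in G. hirsutum D11 the line of all islands has no single spike, and the black line is highest near 62.1%.

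The A11 domain of G. barbadense held 240 islands with 62708 ChIP reads and 3882 input reads, a ratio of 26.5 (25.6 to 27.4). The D11 domain held 389 islands with 30307 ChIP reads and 2058 input reads, a ratio of 24.2 (23.1 to 25.3). The A11 domain was thus shorter and held fewer but longer islands, with a median length of 1400 bp on A11 and 1000 bp on D11. Islands covered 46.7% of the A11 domain and 34.5% of the D11 domain, and the D11 share was the lowest of the 26 domains of that list. The island count of A11 over that of D11, 0.617, was the lowest of the 13 pairs in G. barbadense, where the median pair had 0.907. Island by island the median scaled ratio was 30.4 (interquartile range 17.5 to 48.7) in the A11 domain, which ranked 2 of 26, and 20.1 (13.1 to 33.9) in the D11 domain, which ranked 23 of 26. Counting at least 3 input reads lowers the ratio of islands with fewer. No input read was found in 62 of the 240 A11 islands and in 117 of the 389 shorter D11 islands. The part of that limit in the order of the medians was not tested.

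The A11 domain of G. hirsutum held 155 islands with 15761 ChIP reads and 2588 input reads, a ratio of 7.31 (7.01 to 7.62). It had a median island ratio of 9.07 (interquartile range 6.25 to 12.5) and covered 23.7% of its interval. The A11 domains thus had a ratio of 26.5 in G. barbadense and 7.31 in G. hirsutum, with intervals that do not overlap. The median over all 26 domains was 24.2 in G. barbadense, against 7.27 in G. hirsutum, so the lower ratio was not confined to A11. With 1 library each, species and library cannot be told apart.

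On D11 of G. hirsutum the same rule placed the highest site at 47.4 to 51.2 Mb, centred at 69.1%. It was 3.8 Mb wide, the widest of the 26, with 189 islands and a ratio of 1.98 (1.92 to 2.03), and 2 of its islands had a ratio of 4 or more. The ratio of the whole chromosome was 1.95 (1.93 to 1.97), so the site was wide and dense in islands of ordinary strength. The other sites of D11, at 28.3 to 30.3 Mb (ratio 1.96) and at 38.7 to 41.3 Mb (2.10), were like it.

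Strong islands of G. hirsutum D11 gathered elsewhere. When the rule was run on islands of scaled ratio 4 or more alone, the highest site lay at 43.5 to 45 Mb, centred at 62.1%, close to the 62.5% of the G. barbadense D11 domain. It held 27 islands, of which 24 had a ratio of 4 or more, and its ratio was 6.95 (6.0 to 8.07). Those values follow from the way the site was chosen and are given as a description. The islands together covered 28.2 kb, or 1.88% of the interval, the least of the 26 chromosomes of that list, and the maximum stood 1.91 times above the next site, short of the 2 times asked for. Under that rule 22 of 26 G. hirsutum chromosomes (84.6%) had a distinct site, against all 26 (100%) in G. barbadense.

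The single islands of this site were short and shallow. They held 21 to 151 ChIP reads against 0 to 42 input reads, had a median length of 800 bp, and 5 of them had no input read at all. The island with the most ChIP reads, at 43671001 to 43673200, had 151 ChIP and 42 input reads and a ratio of 4.31 (3.05 to 6.23). The highest ratios stood further right, at 44850401 to 44851200 with 50 ChIP reads and no input read (ratio 20, with a lower bound of 15.7), at 44450401 to 44451200 with 48 and 2 (19.2, interval 7.55 to 245) and at 44098601 to 44100600 with 106 and 8 (15.9, interval 7.78 to 37.8). With 2 input reads or fewer in 10 of the 27 islands, the ratio of a single island here is poorly known, and 12 of the 27 held 40 or more ChIP reads.

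The position was also looked up without using the strength of the G. hirsutum islands. Within 1% of the chromosome length on each side of 62.5%, where the G. barbadense D11 domain is centred, G. hirsutum D11 had 19 islands, and 17 of them had a ratio of 4 or more. Their pooled ratio was 9.14 (7.42 to 11.4). In the whole G. hirsutum list 9.75% of islands had such a ratio (8677), and on D11 143 of 2060 islands (6.94%) did. The interval held few islands, 13.3 per Mb, most of them of ratio 4 or more. The value depends on the window: within 2.5% on each side D11 had 81 islands, 28 of them of ratio 4 or more, and a pooled ratio of 2.62 (2.49 to 2.76). On A11, within 1% of 58.1%, G. hirsutum had 66 islands, 9 of them of ratio 4 or more, with a pooled ratio of 2.29 (2.18 to 2.41), and the A11 domain began just to the right of that window. Within 2.5% the window took in the domain and A11 had 360 islands, 148 of them of ratio 4 or more, with a ratio of 3.53 (3.45 to 3.61). The order of D11 and A11 thus turned with the width of the window.

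By relative position the A11 domains differed by -1.58 points (58.1% in G. barbadense and 59.7% in G. hirsutum), the 11th largest difference of the 26 chromosomes, whose median was 0.668. With islands of ratio 4 or more the A11 sites differed by -1.46 points (58.1% and 59.6%), the 6th largest of the 26. The D11 sites differed by -6.67 points with all islands (62.5% and 69.1%) and by 0.41 points with islands of ratio 4 or more (62.5% and 62.1%), for which the median of the 26 was 0.538. Relative positions depend on how completely each assembly holds the chromosome, which was not tested. Between homoeologues, the midpoint of A11 minus that of D11 was -4.36 points in G. barbadense. It was -9.45 points in G. hirsutum with all islands and -2.49 points with islands of ratio 4 or more.

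The core of a chromosome is its domain where that was distinct, and otherwise its highest site of islands of ratio 4 or more; for G. hirsutum D11 it is the site at 43.5 to 45 Mb. This definition was chosen after the values had been seen. By it some G. hirsutum cores were weak sites, with a ratio of 1.49 on D02, 2.66 on D05 and 2.97 on D08. On D05 the core lay at 48.2 to 48.9 Mb, while a site of ratio 9.13 lay at 41.3 to 42.6 Mb. The cores of A11 and D11 took up a large part of the ChIP reads of the chromosome in G. barbadense and a small one in G. hirsutum. In G. barbadense the core held 30.1% of the ChIP reads in islands of A11 (interval 29.9 to 30.3%) and 3.24% of the input reads, and 30.4% (30.1 to 30.6%) and 3.94% on D11. In G. hirsutum it held 4.32% (4.25 to 4.39%) and 1.26% on A11, and 0.880% (0.832 to 0.931%) and 0.247% on D11. Cores were located by their ChIP to input ratios, so a ChIP share above the input share follows from the choice.

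Both libraries contributed to the height of the ratio. Per kb of island, the core of G. barbadense A11 held 111 ChIP reads and 6.90 input reads, against 30.6 and 24.4 in the islands outside core and flanks. The core of G. barbadense D11 held 58.6 ChIP and 3.98 input reads per kb, against 29.1 and 21.1 outside. The core of G. hirsutum A11 held 50.9 and 8.36, against 32.5 and 19.1, and that of D11 43.7 and 7.55, against 32.7 and 20.5. ChIP reads per kb were therefore 3.64 and 2.02 times as dense in the core on A11 and D11 of G. barbadense and 1.57 and 1.34 times on A11 and D11 of G. hirsutum, while input reads outside the core were 3.54, 5.31, 2.28 and 2.71 times as dense as inside, in the same order. The part of low input in the height of the core ratios was not tested.

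**Figure D2:**
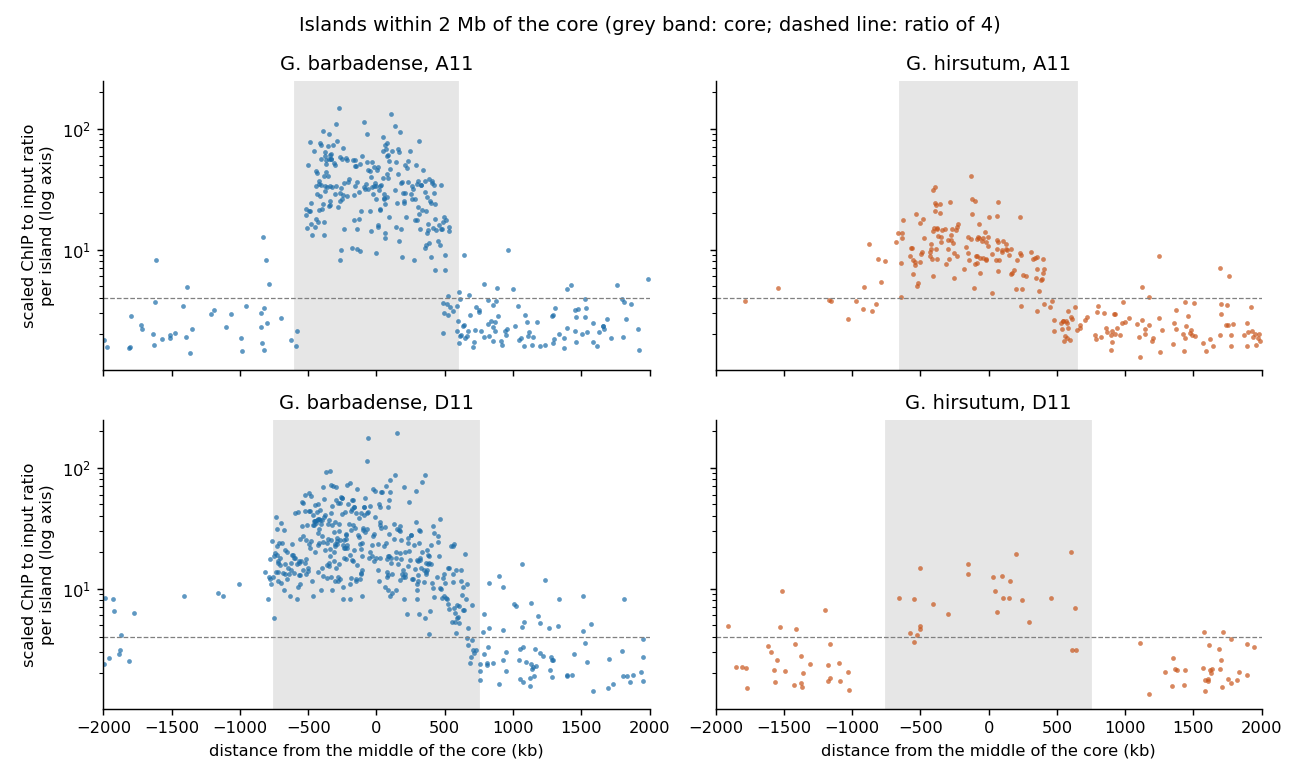
Scaled ChIP to input ratio of each island (log y axis) by its distance from the middle of the core (x axis, kb), A11 above D11, G. barbadense left and G. hirsutum right; the grey band is the core and the dashed line a ratio of 4. The G. barbadense cores and the G. hirsutum A11 core are dense clouds of high ratios, and the G. hirsutum D11 core has 27 islands with uncovered stretches on both sides.

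The strongest islands of each core were the following. In G. barbadense A11 they lay at 67223401 to 67227000 (271 ChIP and 2 input reads, ratio 148), 67607201 to 67608400 (324 and 4, ratio 133) and 67410001 to 67411400 (209 and 2, ratio 114). In G. barbadense D11 they lay at 45199801 to 45205600 (353 and 2, ratio 193), 44986601 to 44990000 (325 and 2, ratio 178) and 44982401 to 44985200 (279 and 4, ratio 114). In G. hirsutum A11 they lay at 72220201 to 72221800 (136 and 4, ratio 40.8), 71953601 to 71955400 (109 and 4, ratio 32.7) and 71940801 to 71943200 (104 and 4, ratio 31.2). Each of these rests on 4 or fewer input reads, and the interval of the first A11 island of G. barbadense, for example, ran over 60.9 to 1844. The core islands with the most ChIP reads were better measured: 2254 ChIP and 96 input reads at 67292601 to 67306000 on G. barbadense A11 (ratio 38.5, interval 31.4 to 47.7), 1011 and 25 at 44903601 to 44909000 on G. barbadense D11 (66.3, interval 44.7 to 103), and 382 and 37 at 71875601 to 71881800 on G. hirsutum A11 (12.4, interval 8.83 to 17.9). These 3 islands were chosen after their values were seen.

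Within the cores CENH3 islands were not evenly strong. The inner part of the core, as long as the outer parts together, had a higher ratio than these in all 4 cores: 37.7 and 17.3 on G. barbadense A11, 43.2 and 14.7 on G. barbadense D11, 9.98 and 5.71 on G. hirsutum A11, and 13 and 5.23 on G. hirsutum D11. The intervals of inner and outer parts did not overlap in any of these. A decline away from a maximum is part of how a domain is found, so this is a description.

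The sides left and right of the middle differed as well. On G. barbadense D11 the left side had a ratio of 43.9 (40.6 to 47.4) and the right side 14.5 (13.7 to 15.3). That factor of 3.03 between the sides was the largest of the 26 G. barbadense cores, whose median was 1.31. On G. barbadense A11 the left side had 34.2 and the right side 20.8, and on G. hirsutum A11 the left side had 11.4 (10.6 to 12.2) and the right side 5.0 (4.74 to 5.28), the fifth most uneven of 26. On G. hirsutum D11 the sides had 6.01 (4.99 to 7.28) and 8.57 (6.75 to 11), and these intervals overlap. The left side was thus the stronger in 3 of the 4 cores of the pair; over all chromosomes it was the stronger in 11 of the 26 G. barbadense cores and 13 of the 26 G. hirsutum cores.

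**Figure D3:**
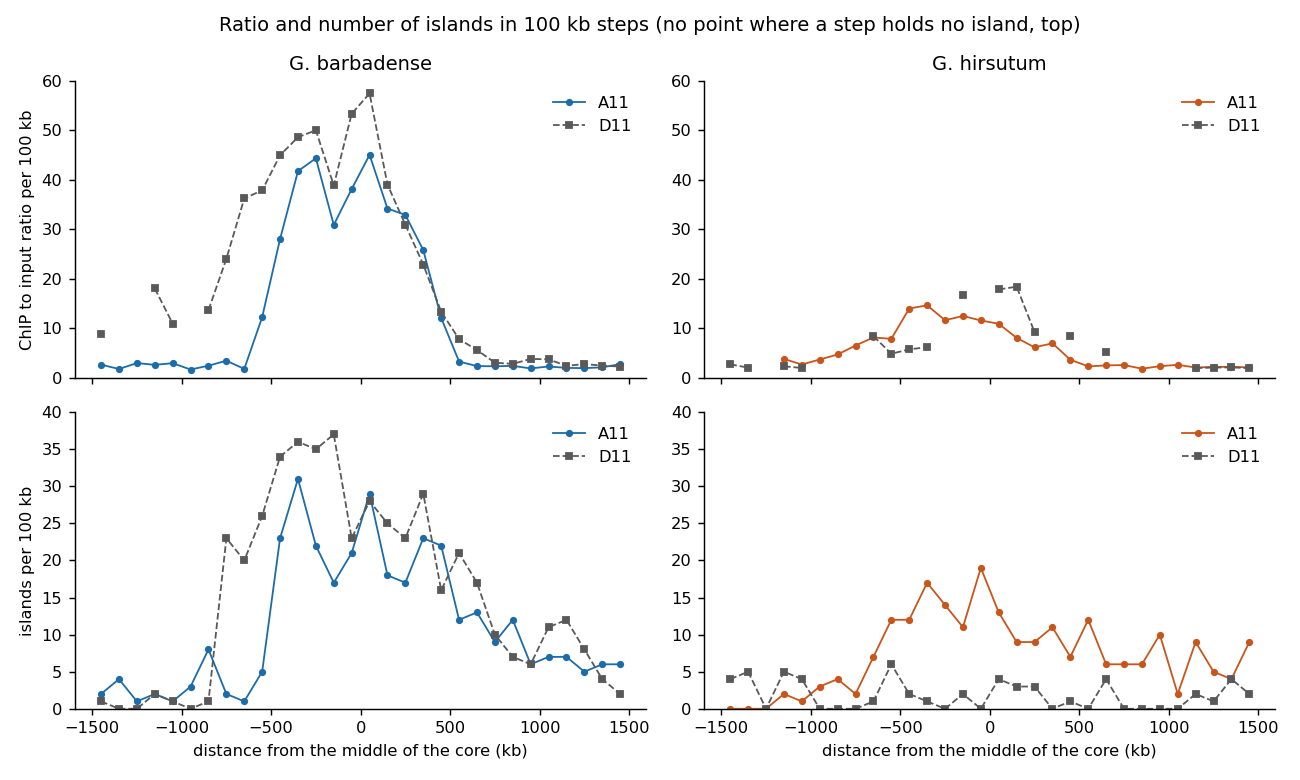
ChIP to input ratio (top) and number of islands (bottom) per 100 kb by distance from the middle of the core (kb), G. barbadense left and G. hirsutum right, A11 solid and D11 dashed. In G. barbadense the ratio reaches 45.1 on A11 and 57.5 on D11, and D11 lies above A11 on the whole left side of the core; in G. hirsutum A11 reaches 14.6 and D11 has 0 to 6 islands in each step inside its core.

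In steps of 100 kb the highest ratio inside the core was 45.1 on A11 and 57.5 on D11 in G. barbadense, and 14.6 on A11 and 18.4 on D11 in G. hirsutum. The median step of the core had 21.5 islands on A11 and 25.5 on D11 in G. barbadense, and 12 on A11 and 1.5 on D11 in G. hirsutum. Outside the cores, up to 3 Mb from their middle, the median step had a ratio of 2.19 on A11 and 2.48 on D11 in G. barbadense, and 2.20 on A11 and 2.07 on D11 in G. hirsutum.

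Islands inside the G. barbadense cores stood close together. The median uncovered stretch between neighbours was 1000 bp on A11 and 1400 bp on D11, against 19400 bp and 26400 bp outside core and flanks on the same chromosomes. In the core of G. hirsutum A11 it was 2100 bp, against 11200 bp outside, whereas in that of G. hirsutum D11 it was 25400 bp, against 19800 bp outside. The D11 core of G. hirsutum was therefore sparser in islands than its arms. The longest uncovered stretch inside a core was 62.6 kb on G. barbadense A11 (66917401 to 66980000, next to the left edge), the longest of the 26 domains in that list, 18.2 kb on G. barbadense D11 (45764001 to 45782200), 56.2 kb on G. hirsutum A11 (71721601 to 71777800) and 178 kb on G. hirsutum D11 (44102601 to 44280400). A stretch without an island had no call there, which does not show that CENH3 was absent.

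Just outside the cores, the left and right sides differed. Within 1 Mb of the core of G. barbadense A11, 27 islands lay on the left and 78 on the right, with ratios of 2.07 (1.89 to 2.27) and 2.23 (2.13 to 2.33). On G. barbadense D11, 13 islands lay on the left, all of ratio 4 or more (pooled 18.0, interval 12.7 to 26.3), and 65 on the right, 22 of them of ratio 4 or more (2.68, interval 2.52 to 2.85). The left side of the D11 core thus had few islands, all of them strong, up to an uncovered stretch of 363 kb at 43276001 to 43638800, the 5th longest of the chromosome.

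In G. hirsutum, A11 had 15 islands in the first 1 Mb to the left of its core, 8 of them of ratio 4 or more (4.79, interval 4.13 to 5.58), and 59 to the right (2.13, interval 2.02 to 2.24). An uncovered stretch of 376 kb, the 6th longest of the chromosome, lay on the left at 70806801 to 71182800. The core of G. hirsutum D11 was bounded by uncovered stretches on both sides, of 365 kb on the left (43226601 to 43591800, the 5th longest of 2059) and of 471 kb on the right (44887201 to 45358000, the 3rd longest). The median stretch on that chromosome was 18.2 kb. The few strong islands of G. hirsutum D11 thus stood alone in a region with hardly any other call.

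**Figure D4:**
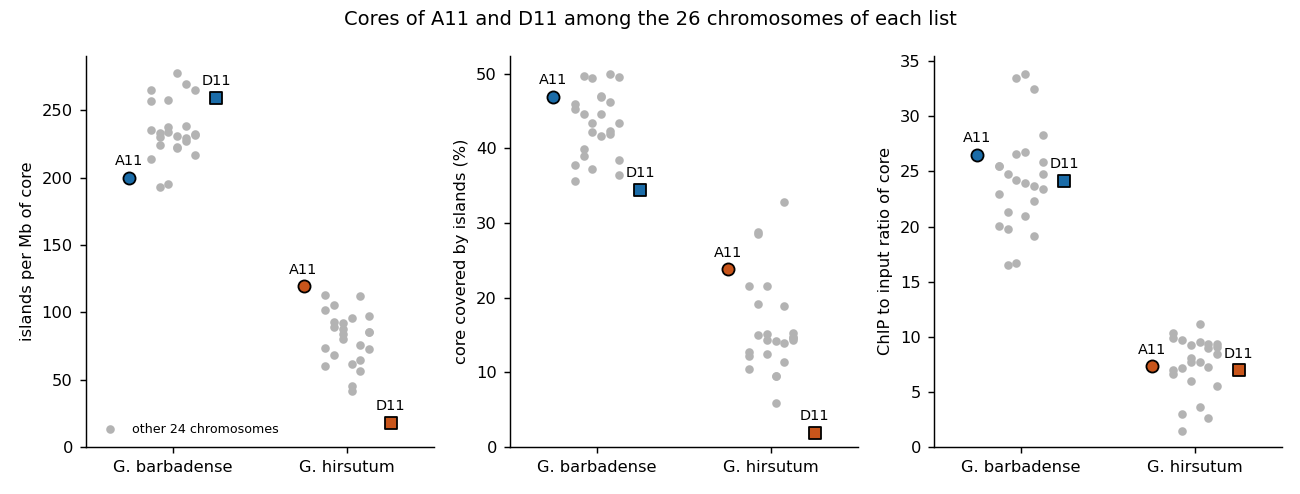
Islands per Mb of core (left), share of the core covered by islands (middle, percent) and pooled ChIP to input ratio of the core (right) for A11 (circle) and D11 (square) among the other 24 chromosomes (grey) of G. barbadense and of G. hirsutum. In G. hirsutum A11 has the densest core, 119 islands per Mb, and D11 the sparsest, 18.0 per Mb, but these cores come from different rules. With all islands the D11 site had 49.7 per Mb, which ranked 24 of 26. Their ratios are 7.31 and 6.95, where the choice of the D11 core from islands of ratio 4 or more sets its height (with all islands its site had 1.98, which ranked 25 of 26).

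Set among all chromosomes, the pair was at both ends of the G. hirsutum list. Its A11 core had 119 islands per Mb, the highest of the 26, and its D11 core had 18.0, the lowest. The quotient of A11 over D11, 6.62, was the highest of the 13 pairs, whose median was 1.36. That quotient sets cores of different rules side by side. With all islands the A11 site had 119 per Mb, which ranked 2 of 26, and the D11 site 49.7, which ranked 24. With islands of ratio 4 or more the A11 site had 114, the highest of the 26, and the D11 site 18.0, the lowest. In G. barbadense the quotient of the cores was 0.771 (200 islands per Mb on A11 and 259 on D11), the 12th of 13 pairs, with a median of 0.972. The density of A11 over D11 thus went opposite ways in the lists, and this difference was not tested. The core ratio was 26.5 on A11 and 24.2 on D11 in G. barbadense, with intervals that do not overlap. That order depends on how the domain is bounded. With covered length as the bin value it was 19.9 on A11 and 20.6 on D11, with intervals that overlap. With bins of 50 kb D11 was likewise above A11, with overlapping intervals. In the other settings run A11 was above D11. In G. hirsutum the cores of A11 and D11 come from different rules, so sites of the same rule are compared: with all islands the ratio was 7.31 (7.01 to 7.62) on A11 and 1.98 (1.92 to 2.03) on D11, and with islands of ratio 4 or more it was 9.63 (9.17 to 10.1) on A11 and 6.95 (6.0 to 8.07) on D11. A11 was above D11 under both rules, and the intervals do not overlap.

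Away from the main site, A11 of G. barbadense had a second one. It lay at 79.5 to 80.4 Mb, or 68.8% of the length, and held 83 islands with a ratio of 3.21 (3.08 to 3.35), 23 of them of ratio 4 or more. That share, 27.7%, was near the 28.6% of the whole list and above the 15.5% of A11 islands outside the core. The pooled ratio of 3.21 was the second highest of the 26 second sites of the list, whose median was 2.11. By its smoothed maximum, by which sites are found, the site ranked 6 of 26. It includes the longest island of the chromosome, 19200 bp at 80102601 to 80121800, with 987 ChIP and 333 input reads and a ratio of 4.86 (4.29 to 5.52), and 5 islands of this site were 5 kb or longer. Input was not low here, with a median of 18.8 input reads per kb of island, against 4.00 in the core. At the same relative position G. hirsutum A11 had 125 islands within 1% on each side and a ratio of 2.10 (2.02 to 2.18), 14 of them of ratio 4 or more. The next site of G. barbadense A11, at 91.7 to 92.7 Mb, had a ratio of 1.66.

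The second site of G. hirsutum A11 lay at 97.8 to 98.8 Mb, or 81.1%. It had 75 islands with a ratio of 2.25 (2.17 to 2.33), covered 26.9% of its interval, and included the longest island of that chromosome, 19800 bp at 98444601 to 98464400 (689 ChIP and 331 input reads, ratio 2.5). This site thus had a larger covered share than the domain itself (23.7%). Of its 75 islands 4 (5.33%) had a ratio of 4 or more, against 7.74% of A11 islands outside the core and 9.75% of the list. At the same relative position G. barbadense A11 had 50 islands within 1% on each side and a ratio of 2.17 (2.02 to 2.33). The next site, at 93.0 to 93.8 Mb, had a ratio of 1.97.

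On D11 of G. barbadense the sites next to the domain in height were low. They lay at 49.4 to 51.3 Mb (69.8%, ratio 2.25) and at 62.6 to 63.2 Mb (87.2%, ratio 2.44). The first of these fell within 1 point of the widest site of G. hirsutum D11 at 69.1%. Of the 6 sites of G. barbadense A11 and D11, 3 had a G. hirsutum site within 5% of the chromosome length and 1 within 1%. The G. barbadense D11 domain was not among the matched sites, as the nearest G. hirsutum site lay 6.37 points away. Of the 6 A11 sites of both lists, 3 had a D11 site of the same list within 5% and 1 within 1%. In 1 of these 3 the G. hirsutum A11 domain (ratio 7.31) was matched to the D11 site at 56.1% (ratio 2.10), which was of ordinary strength. Matches were not counted on the other chromosomes, so these counts are a description only.

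Strong islands were also counted along the rest of the chromosomes. Most islands of a ratio of 8 or more lay in the cores, 225 of 363 (62.0%) on A11 and 360 of 509 (70.7%) on D11 in G. barbadense. In G. hirsutum 100 of 168 (59.5%) did on A11 and 15 of 25 (60%) on D11. The other 24 chromosomes had 72.0% of such islands in their cores in G. barbadense and 59.5% in G. hirsutum, so this is not particular to pair 11. The G. hirsutum share counts the weak cores of D02, D05 and D08, and that of D05 leaves out the stronger site of its chromosome. Its closeness to the shares of A11 and D11 is therefore not a like comparison. Cores were located by these ratios, so such shares follow in part from the choice. In the whole lists 16.5% of G. barbadense islands and 2.65% of G. hirsutum islands reached a ratio of 8. Islands of ratio 4 or more made up 21.0% of A11 and 39.0% of D11 in G. barbadense, where 28.6% of the list (19324) had such a ratio, and 10% of A11 and 6.94% of D11 in G. hirsutum, where 9.75% had. D11 was thus above A11 in G. barbadense and below it in G. hirsutum. The median share was 21.9% over the A and 39.0% over the D chromosomes in G. barbadense, close to A11 and D11. In G. hirsutum it was 9.69% and 9.67%. Of the 13 pairs, A was above D in 0 in G. barbadense and in 7 in G. hirsutum. On the other 24 chromosomes the share was 28.6% for G. barbadense and 9.81% for G. hirsutum.

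Outside core and flanks (5 Mb on each side), islands of ratio 4 or more with at least 40 ChIP reads were called strong arm islands. In G. barbadense there were 69 on A11 and 53 on D11, or 0.657 and 0.874 per Mb. In G. hirsutum there were 155 on A11 and 37 on D11, or 1.41 and 0.619 per Mb. Over the whole lists, 1199 of 47829 G. barbadense islands outside core and flanks (2.51%) were strong, and 2507 of 76597 G. hirsutum islands (3.27%). A11 thus had fewer strong arm islands per Mb than D11 in G. barbadense and more in G. hirsutum. The other pairs behaved in the same way, with A above D in 0 of 13 G. barbadense pairs and in 13 of 13 G. hirsutum pairs, so this is not particular to pair 11. The G. hirsutum list share and pair values outside core and flanks include the islands of the D05 site at 41.3 to 42.6 Mb (ratio 9.13). That site lay beyond the flanks of the weak D05 core. In G. barbadense the order depends on the limit: at a ratio of 8 or more, A11 had 14 (0.133 per Mb) and D11 had 5 (0.0825 per Mb). For islands of ratio 4 or more per Mb, whatever their ChIP reads, the quotient of A11 over D11 was the highest of the 13 pairs in both lists, 0.755 in G. barbadense and 1.95 in G. hirsutum.

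Strong arm islands of G. barbadense A11 lay mostly on the right arm, 48 (1.11 per Mb), against 21 (0.339 per Mb) on the left arm. D11 of G. barbadense had 32 on the left (0.814 per Mb) and 21 on the right (0.985 per Mb). A11 of G. hirsutum had 88 on the left (1.32 per Mb) and 67 on the right (1.55 per Mb), and D11 had 27 (0.701 per Mb) and 10 (0.469 per Mb). Of the 48 on the right arm of G. barbadense A11, 11 lay in its second site at 79.5 to 80.4 Mb.

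The strong arm islands of highest ratio were all small. On G. barbadense A11 they lay at 90267401 to 90268600 (44 ChIP and 4 input reads, ratio 18.0), 20125801 to 20127000 (46 and 6, ratio 12.6) and 108793801 to 108795400 (61 and 8, ratio 12.5). On G. barbadense D11 they lay at 28698201 to 28699600 (44 and 5, ratio 14.4), 70973601 to 70974600 (48 and 6, ratio 13.1) and 25992801 to 25994600 (45 and 6, ratio 12.3). On G. hirsutum A11 they lay at 33426401 to 33427000 (44 and 2, ratio 17.6), 63891001 to 63892000 (40 and 3, ratio 16.0) and 16788401 to 16789400 (44 and 4, ratio 13.2). On G. hirsutum D11 they lay at 21945201 to 21946400 (49 and 6, ratio 9.80), 35954601 to 35956000 (42 and 8, ratio 6.30) and 19839201 to 19840600 (51 and 10, ratio 6.12). They were 600 to 1800 bp long, and their ratios were below those of the strongest core islands of the same chromosome.

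**Figure D5:**
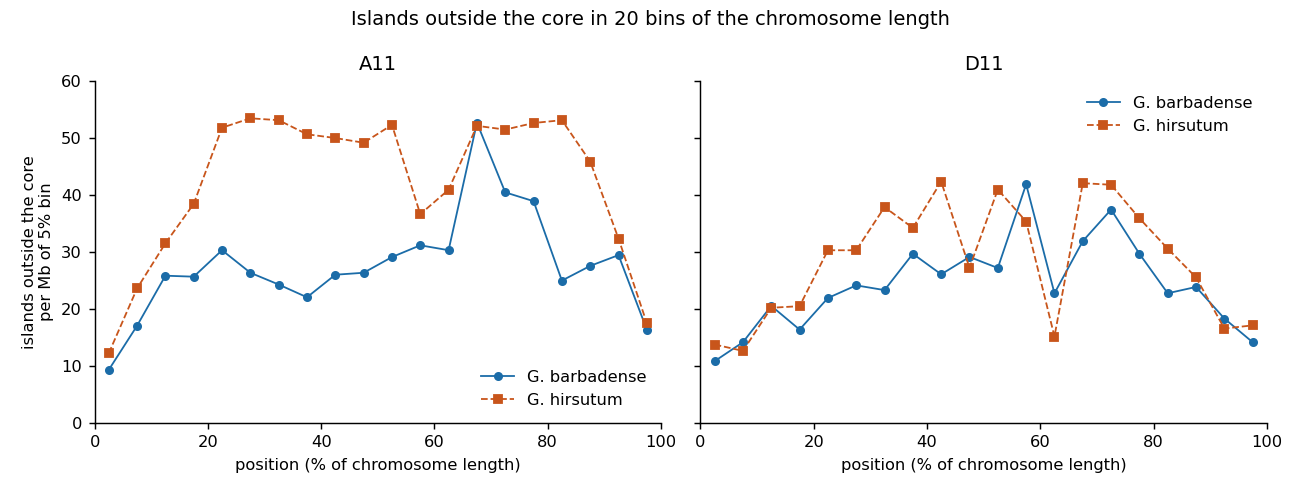
Islands outside the core per Mb (y axis) in 20 bins of 5% of the chromosome length (x axis) for A11 (left) and D11 (right), G. barbadense (circles, solid) and G. hirsutum (squares, dashed). Values are per Mb of the whole bin, core length included, so bins that hold a core read too low. Density is low at both ends, and on A11 G. hirsutum reaches 53.5 and G. barbadense 52.7 per Mb.

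Ordinary islands were spread over both chromosomes and were rarest toward their ends. Outside core and flanks A11 had 27.5 islands per Mb and D11 22.6 in G. barbadense, and A11 had 42.6 and D11 27.9 in G. hirsutum. In bins of 5% of the length, the first bin of A11 held 9.30 per Mb and the last 16.4 in G. barbadense, against a median bin of 26.3, and 12.2 and 17.5 in G. hirsutum, against a median of 49.6. On D11 the first and last bins held 10.8 and 14.1 in G. barbadense (median 23.6) and 13.7 and 17.1 in G. hirsutum (median 30.3). With core islands left out, as in all these bin values, the densest bin of G. barbadense A11 was at 65 to 70% (52.7 per Mb), to the right of the core, and that of G. barbadense D11 at 55 to 60% (41.9 per Mb), to its left. The length of the core was not left out, so bins that hold a core read too low. Across the 20 bins, density in G. barbadense and in G. hirsutum had a Pearson's r of 0.62 on A11 and 0.77 on D11 (Spearman's rho 0.36 and 0.80). These are descriptions over bins of the same libraries, which share the low ends and, on each chromosome, a bin lowered by the core.

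The ratio of islands outside core and flanks was 2.06 (2.04 to 2.08) on A11 and 2.26 (2.23 to 2.29) on D11 in G. barbadense, and 2.05 (2.04 to 2.06) on A11 and 1.92 (1.90 to 1.93) on D11 in G. hirsutum. The order of A11 and D11 was opposite in the lists, and in every one of the 13 pairs it ran as in pair 11. Their median input per kb of island was 21.7 on A11 and 18.3 on D11 in G. barbadense, and 18.0 on both in G. hirsutum. In G. barbadense the chromosome with more input thus had the lower ratio; the part of input in that order was not tested. In the flanks A11 had 32.7 islands per Mb and D11 38.0 in G. barbadense, and A11 had 46.7 and D11 36.2 in G. hirsutum. The flank ratio of G. barbadense A11, 2.06 (2.01 to 2.11), was the lowest of the 26 in that list.

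The first island of each chromosome began at its first base and was full of input reads. It had 5830 ChIP and 7806 input reads over 18600 bp on G. barbadense A11 (ratio 1.22, interval 1.18 to 1.27), and 2972 and 4297 over 17200 bp on G. barbadense D11 (1.13, interval 1.08 to 1.19). It had 5876 and 5647 over 15400 bp on G. hirsutum A11 (1.25, interval 1.20 to 1.30), and 4090 and 4426 over 10200 bp on G. hirsutum D11 (1.11, interval 1.06 to 1.16). These islands were thus among the most covered and the least enriched of the chromosome, and those of both D11 chromosomes were also the longest of their chromosome. The chromosome ends (the first and last 5%) had ratios of 1.63 on A11 and 1.58 on D11 in G. barbadense and of 1.65 on A11 and 1.49 on D11 in G. hirsutum. Without that island they had 2.65, 2.59, 2.01 and 1.73 in the same order, a change of over 1.5 times in G. barbadense.

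A few more islands dense in input lay elsewhere. On G. hirsutum A11 an island of 3200 bp at 25232201 to 25235400 had 3955 ChIP and 2405 input reads (ratio 1.97), and on G. hirsutum D11 one of 1600 bp at 70652601 to 70654200 had 2874 and 2339 (1.47). On G. barbadense D11 an island of 600 bp at 56050801 to 56051400 had 292 and 121 (3.96). Islands with more than 10 times their list's median input per kb numbered 7 on A11 and 3 on D11 in G. barbadense and 11 on A11 and 4 on D11 in G. hirsutum. They held 8.46% and 8.73% of the input reads on A11 and D11 in G. barbadense, and 5.59% and 9.12% in G. hirsutum. Such islands made up 0.201% of all islands and held 12.2% of the input reads in the whole G. barbadense list, and 0.162% and 7.92% in the G. hirsutum list. As a share of islands they were 0.202% on A11 and 0.140% on D11 in G. barbadense, and 0.208% on A11 and 0.194% on D11 in G. hirsutum, close to their lists. The last island of the chromosome was small in each case, with 29 ChIP and 20 input reads on A11 and 18 and 13 on D11 in G. barbadense, and 46 and 36 on A11 and 26 and 14 on D11 in G. hirsutum.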

How the data were processed

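The deposited data are 1 list of enriched islands for each species. The tools named in the submitters' processing notes are Trimmomatic, Bowtie2 and SICER; for their versions and the genome builds, nothing is given in the sources used here. The list names record windows of 200 bp, gaps of 400 bp, a false discovery rate of 0.01 and the tag uniq. If that tag stands for reads with a unique place, repeats may lack islands whatever their CENH3. The lists have no header, and columns were read in SICER's usual order. The authors deposited raw counts of ChIP and input reads per island. They also deposited a p-value and a q-value per island, which compare ChIP with scaled input reads. The authors' fold is the ratio of ChIP and input reads times 1 constant per list, here rounded to 1.64 and 1.20. Islands without input reads (2459 in G. barbadense, 281 in G. hirsutum) carry a deposited fold that corresponds to 0.25 reads, so scaled ratios with at least 3 input reads were used instead.

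Groups were taken from the sample titles. Domains, ratios and ranks were computed in Python 3.11.15 with numpy 2.4.6, pandas 2.3.3 and scipy 1.17.1. Flanks are within 5 Mb of the core, ends are the first and last 5% of the length, and arms are the rest. The domain rule was tried on 12 simulated chromosomes with a planted domain dense in islands, and it found all 12 within 0.3 Mb. A sparse site such as that of G. hirsutum D11 was not simulated, so these runs do not bear on it. The islands named are the 3 of highest ratio in the core and the 3 outside core and flanks (40 or more ChIP reads), the 2 outside them whose ChIP reads exceed scaled input the most, the longest, and the first and last. The members, lists and limits were chosen with earlier results of these data known. No genome of these builds was used, so no sequence or annotation is given.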

Additional observations from a re-analysis of the deposited data

Results flagged for a closer look

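Differences between A11 and D11 that ran opposite ways in the lists are collected here; each is A11 minus D11, and none was tested. Outside core and flanks, strong islands per Mb differed by -0.217 in G. barbadense and by 0.792 in G. hirsutum. Islands of ratio 4 or more per Mb differed by -1.44 in G. barbadense and by 1.62 in G. hirsutum, and their share of the islands by -9.82 and by 1.72 percentage points. The pooled ratio differed by -0.199 in G. barbadense and by 0.132 in G. hirsutum. In the flanks, islands per Mb differed by -5.30 in G. barbadense and by 10.5 in G. hirsutum, and the pooled ratio by -0.255 and by 0.157. With 1 ChIP library per species, species and library cannot be told apart. Inside the cores, islands per Mb differed by -59.3 in G. barbadense and by 101 in G. hirsutum, where the cores of A11 and D11 come from different rules. Over the whole chromosome the share of islands of ratio 4 or more differed by -17.9 in G. barbadense and by 3.06 percentage points in G. hirsutum. Several of these orders were shared by the other pairs. A was above D in 0 of 13 G. barbadense pairs and in 13 of 13 G. hirsutum pairs for strong islands per Mb, for islands of ratio 4 or more per Mb and for the pooled ratio outside core and flanks, and for the pooled ratio in the flanks. For the share of islands of ratio 4 or more it was above in 0 G. barbadense and 8 G. hirsutum pairs outside core and flanks, and in 0 and 7 over the whole chromosome. For islands per Mb it was above in 10 G. barbadense and 13 G. hirsutum pairs in the flanks, and in 5 and 9 in the cores. The G. hirsutum counts for cores, flanks and the rest use the cores as defined, among them the weak sites of D02, D05 and D08.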

How the results depend on the processing

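Both G. barbadense domains and the G. hirsutum A11 domain kept their place in the alternatives run, except that covered length put the G. hirsutum A11 site at 98.3 Mb (ratio 2.25). The place of the G. hirsutum D11 site, 49.3 Mb with all islands, depended on the bin value: it was 0.15 Mb (ratio 1.20) with ChIP minus scaled input reads or with covered length, both at the first-base island, and 44.25 Mb (ratio 6.95) with islands of ratio 4 or more. The D11 midpoint of G. barbadense minus G. hirsutum was then 62.3, 62.5 and 0.411 points, against -6.67, and that of A11 -22.9 points with covered length. The G. hirsutum width of A11 minus D11, -2.5 Mb, was 1.1 and 0.7 Mb with these bin values, -0.3 Mb with islands of ratio 4 or more, -2.2 Mb at a false discovery rate of 0.0001 and -1.5 Mb at a threshold of 50%. Ratios followed the interval: G. barbadense A11 had 19.9 (covered length), 23.4 (50 kb bins) and 35.6 (50% threshold), G. barbadense D11 20.6 and 33.0 (covered length and 50% threshold), and G. hirsutum A11 8.27 (authors' fold), 9.63 (ratio 4 or more) and 10.2 (50% threshold). The G. barbadense ratio of A11 thus fell below that of D11 with covered length and with 50 kb bins, and the intervals overlap. At the 50% threshold A11 was above D11, but these intervals overlap too. Within 1% in place of 5%, 1 of 6 sites matched between species and 1 of 6 between homoeologues, against 3 each.

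Strong arm islands per Mb at a ratio of 8 or more were 0.133 and 0.0825 on A11 and D11 of G. barbadense and 0.118 and 0.0167 in G. hirsutum; without a minimum of ChIP reads they were 4.42 and 5.86, and 3.33 and 1.71. A11 minus D11 was 0.0509 (the sign turned) and 0.102 at a ratio of 8, and -1.44 and 1.62 without a minimum, in G. barbadense and G. hirsutum. The cause of these changes was not tested unless named. The definition of the core and the chromosome ends without the first-base island were chosen after seeing the data. No paired analysis was possible because each species had 1 ChIP and 1 input library and no result comes from a test. Leaving out a replicate was likewise impossible. In the G. hirsutum D11 core, 10 of 27 islands had fewer than 3 input reads, which leaves their ratios imprecise; why input was low there was not tested.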
